A study of Mus musculus with 10 samples.

Results

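The NMDA and delta glutamate receptor subunits examined here were 8 genes of the 24453 counted in each library: *Grin1*, *Grin2a*, *Grin2b*, *Grin2c*, *Grin2d*, *Grin3a*, *Grin3b* and *Grid1*. They were taken by gene symbol from a list of the family, and each symbol was found once in the table of counts. The cells came from male *Fezf2-Gfp* reporter mice, strain (Zfp312-EGFP)CO61GsatMmnc, in which GFP is driven from the *Fezf2* gene's regulatory sequence. At postnatal day 23 to 25 the left primary motor cortex (M1) was injected with fluorescent cholera toxin subunit b, a tracer taken up by axon endings and carried back to the cell body, and at postnatal day 28 to 32 layer 5 of the right M1 was dissected and dissociated. Cells of 5 animals were sorted by fluorescence into GFP-positive, tracer-positive (*Fezf2+ve*) and GFP-negative, tracer-positive (*Fezf2−ve*) intratelencephalic projection neurons (IT-PNs), which gave 1 library of each type per animal, 10 in all, with no other treatment of either group. The *Fezf2+ve* libraries held 107643 to 203379 reads assigned to genes (median 118134) and the *Fezf2−ve* libraries 89138 to 217738 (median 168711).

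NMDA receptors are glutamate-gated cation channels that pass calcium and are blocked by magnesium at rest. Each holds the obligatory GluN1 subunit, which binds the co-agonist glycine or D-serine, together with GluN2 subunits, which bind glutamate, or GluN3 subunits, which bind glycine. In the rodent cortex GluN2B predominates early and GluN2A rises after birth, and the delta subunit GluD1, which glutamate does not open in the usual way, is known mainly as a synaptic organiser that binds secreted cerebellins.

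Although the subunits differ in role, they share a stretch of the third membrane segment, which lines the gate of the pore. The longest run of identical residues coded by all 8 genes was 7 residues long, occurred once in each, and lay in this stretch. Its coding bases are shown because reads of the family were assigned to genes by position, so that near-identical sequence between members would make their counts uncertain. The 10 codons that start with the run are given for 7 of the genes, 5′ to 3′ on the coding strand, from GENCODE vM21 transcripts on GRCm38, and capitals mark the 16 of 30 bases that were identical in all 8 genes.
Grin1: TAcACtGCcAAccTgGCaGCctTCcTggtg
Grin2a: TAcACaGCcAAccTgGCtGCctTCaTgatc
Grin2b: TAcACtGCcAActTaGCcGCctTCaTgatc
Grin2c: TAcACgGCcAAtcTgGCaGCctTCaTgatc
Grin3a: TAcACaGCgAActTgGCtGCtgTCaTggta
Grin3b: TAcACaGCcAAccTgGCaGCtgTCaTggtc
Grid1: TAcACaGCcAAccTgGCcGCttTCcTcaca
Any pair of the 8 members shared 21 to 28 of these 30 bases, and the pair that shared 28 was *Grin2a* and *Grin2d*, the member not shown. Over the whole coding sequences the longest identical run in the 28 pairs was 34 bases, between *Grin2b* and *Grin2c*, and the median over pairs was 14 bases. Untranslated and intronic sequence, where reads can also lie, was not compared. These figures therefore cannot tell how uncertain the counts of the members are. The stretch lies within 1 exon of each gene, in these 7 at chr2:25297193-25297222 in *Grin1*, chr16:9653441-9653470 in *Grin2a*, chr6:135772238-135772267 in *Grin2b*, chr11:115253743-115253772 in *Grin2c*, chr4:49770464-49770493 in *Grin3a*, chr10:79974639-79974668 in *Grin3b* and chr14:35452344-35452373 in *Grid1*, on the plus strand in *Grin3b* and *Grid1* and the minus strand in the others.

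The label of the cells was checked first against marker genes. *Fezf2* itself had 1 read in the 10 libraries, in the *Fezf2+ve* library of animal 5. Among 7 genes of excitatory projection neurons, 6 had at least 1 read and their summed reads were 19 in *Fezf2+ve* and 28 in *Fezf2−ve* libraries. *Slc17a7*, the vesicular glutamate transporter of cortical excitatory neurons, had 11 reads. *Tbr1* and the layer 5 marker *Rbp4* had no read in any library. Among 7 layer and projection genes the most abundant was *Cux2* with 95 reads, 48 of them in the *Fezf2−ve* library of animal 4. Without the *Fezf2−ve* library of animal 3 the excitatory reads of that type were 6. With so few reads of these markers, the label of the cells could not be checked from the counts.

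Markers of microglia, blood and glia were more abundant, and those of vessels and inhibitory neurons were not. The 10 microglial genes, all with reads, summed, from animal 1 to animal 5, to 23, 13, 5, 8 and 20 reads on the *Fezf2+ve* side and 1005, 328, 849, 355 and 851 on the *Fezf2−ve* side. The most abundant was *Ctss*, a lysosomal protease, with 10 reads in *Fezf2+ve* and 807 in *Fezf2−ve* libraries. In edgeR with animals as blocks, 7 of the 10 fell under an unadjusted p of 0.05, against 3.89% of all tested genes. In that fit 0 had an FDR at or below 0.1, against 0% of all tested genes. At that FDR 7 passed without the block, against 3.77% of all tested genes. With DESeq2 7 passed, against 5.89% of the 1664 genes with an adjusted p. Microglial reads were thus more frequent in the *Fezf2−ve* library of all 5 animals, a difference that stands beside each comparison of the receptor genes below, and its part in those results was not tested. The 4 haemoglobin genes summed to 116 and 1160 reads, led by *Hbb-bs* with 45 and 365, and without animal 1 the sums were 13 and 402. All 4 had an unadjusted p under 0.05 in edgeR with the block, where 0 passed the FDR threshold, and DESeq2 called *Hba-a1* and *Hba-a2* and edgeR without the block 0. Without animal 2, or without the block, 2 of the 4 had an unadjusted p under 0.05 in edgeR. Over all tested genes 235 of 6062 and 1345 of 7409 did so, in turn. The sum was higher on the *Fezf2−ve* side of each animal, in animal 5 by 2 reads against 0. *Hba-a1* and *Hba-a2* had identical counts in every library, so the sums and the calls above hold the same counts under both names. Astrocyte genes (7 of 8 with reads, led by *Slc1a2* with 1817 reads, *Gfap* at 0) summed to 1354 and 983 reads, oligodendrocyte genes (7 of 7) to 1376 and 544, and oligodendrocyte precursor genes (4 of 4, led by *Pdgfra* with 740) to 738 and 634. The *Fezf2+ve* library of animal 2 was the highest of its type in each of these lists, and without it the *Fezf2+ve* sums were 527, 247 and 399. Without the highest *Fezf2−ve* library of each list, those of animals 4, 1 and 5 in turn, the *Fezf2−ve* sums were 179, 204 and 391, so single libraries decide which type has more of these reads. Endothelial and mural genes (5 of 6, led by *Flt1* with 26 reads, *Vtn* at 0) summed to 23 and 22 reads, and inhibitory neuron genes (3 of 7, led by *Gad2* with 6 reads, with *Slc32a1*, *Pvalb*, *Vip* and *Lhx6* at 0) to 1 and 10. In bulk libraries such as these, fewer cells that express a gene and less of its RNA in each cell cannot be told apart.

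The receptor family held 2109 reads, 614 in *Fezf2+ve* and 1495 in *Fezf2−ve* libraries, and 7 of the 8 genes had at least 1 read. Most of these reads belonged to *Grid1* (1475) and *Grin2b* (555), and both genes were concentrated in a few libraries. Of the 80 values, 8 genes in 10 libraries, 36 were 0, 25 were 1 to 3 reads and 6 were over 30 reads. A count of 3 reads is the limit that a count of 0 allows, and 3 reads corresponded to 13.8 to 33.7 CPM (reads scaled to library size) across the libraries. These limits and the intervals given below cover counting error only, since copies made by amplification cannot be recognised here, there being no molecular identifiers.

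**Figure D1:**
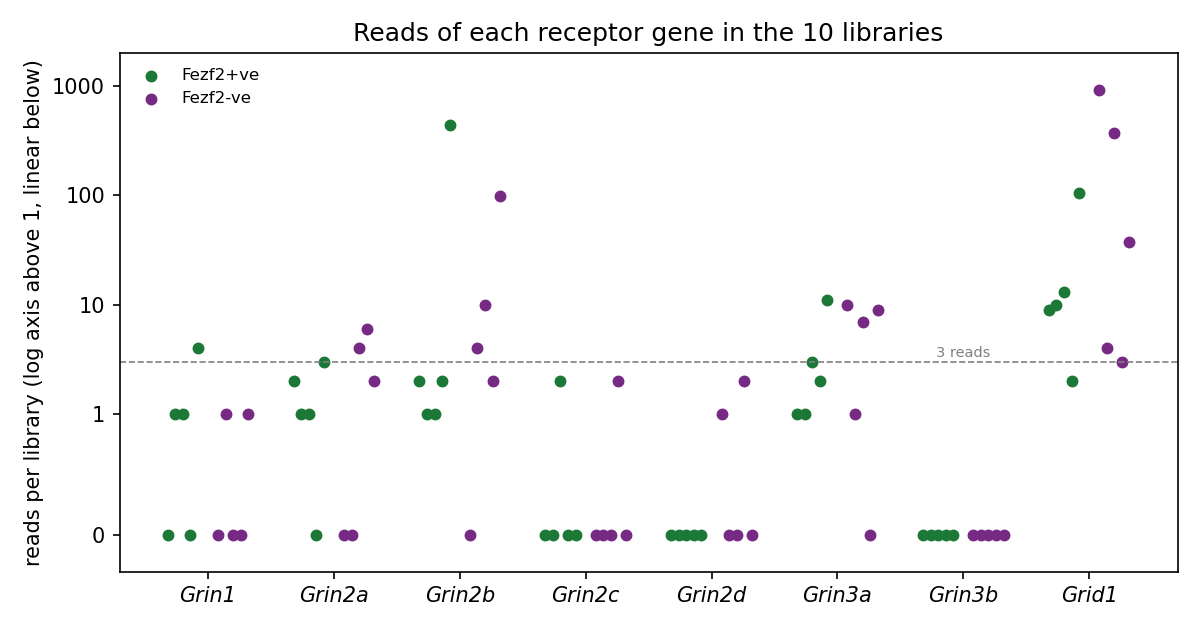
Reads of each of the 8 receptor genes (x axis) in every library (y axis, reads, logarithmic above 1 and linear below), with 5 *Fezf2+ve* libraries in green and 5 *Fezf2−ve* libraries in purple, animals 1 to 5 from left to right, and a dashed line at 3 reads. *Grid1* reached 923 reads and *Grin2b* 435 in single libraries, whereas *Grin2c*, *Grin2d* and *Grin3b* did not exceed 2 reads in any library.

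*Grin1* encodes GluN1, without which no NMDA receptor reaches the surface. It lies on chromosome 2 (25291181 to 25319187, minus strand, GRCm38). Animals 1 to 5 gave 0, 1, 1, 0 and 4 reads among *Fezf2+ve* cells and 0, 1, 0, 0 and 1 among *Fezf2−ve* cells. Only the *Fezf2+ve* library of animal 5 exceeded 3 reads, and the types overlapped. The summed reads, relative to depth, were 3.67 times as high in *Fezf2+ve* libraries, with an exact 95% interval of 0.656 to 37.2 for 6 against 2 reads, so that a difference in *Grin1* was not detectable at this depth. In the fit *Grin1* had a log2 fold change of 1.23, with 2.38 as its standard error. *Grin1os*, an antisense gene inside *Grin1*, had 1 read each on the *Fezf2+ve* side of animals 2 and 3, where *Grin1* also had 1 read each. Whether the authors' counting used the strand is not given in the sources used here, so these 2 reads may be the same ones counted under both names.

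The GluN2 genes set the kinetics and magnesium sensitivity of the receptor. *Grin2b* (chromosome 6, 135713233 to 136173511, minus strand) encodes GluN2B, whose slow channels carry much of the calcium entry of young synapses. Its reads in animals 1 to 5 were 2, 1, 1, 2 and 435 in *Fezf2+ve* and 0, 4, 10, 2 and 98 in *Fezf2−ve* libraries. The libraries of animal 5 were the highest of each type, and the *Fezf2+ve* library of that animal held 78.4% of all *Grin2b* reads, while the types overlapped in the other animals. The mean level, as log2(CPM + 1) after scaling by the trimmed mean of M values (TMM), was 5.20 ± 3.53 (SD, n = 5) for *Fezf2+ve* cells against 4.78 ± 3.27 (SD, n = 5) for *Fezf2−ve* cells. In 3 of 5 animals *Grin2b* was higher on the *Fezf2+ve* side, and the fitted log2 fold change of *Fezf2+ve* over *Fezf2−ve* was 0.28 (standard error 1.29). Leaving out animal 5 turned it to -0.60, leaving out animal 1 to -0.48, and a fit without the replicate block gave 2.07. No direction of *Grin2b* between the types could therefore be read from these libraries.

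*Grin2a* (chromosome 16, 9567898 to 9995560, minus strand) encodes GluN2A, the faster subunit of mature cortical synapses. It had 19 reads, with 2, 1, 1, 0 and 3 in *Fezf2+ve* and 0, 0, 4, 6 and 2 in *Fezf2−ve* libraries. Only the *Fezf2−ve* libraries of animals 3 and 4 exceeded 3 reads, and the types overlapped. The fit gave a log2 fold change of 0.045 (standard error 1.58), which turned to -0.59 without the replicate block and to -0.74 without animal 1.

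The balance of *Grin2a* and *Grin2b* reads within a library does not depend on how libraries are scaled. In the *Fezf2+ve* library of animal 5 *Grin2a* made up 0.685% of the 438 reads of both genes (exact 95% interval 0.141% to 1.99%), and in the *Fezf2−ve* library of animal 5 it made up 2.0% of 100 reads (0.243% to 7.04%). In the *Fezf2−ve* library of animal 4 it was 75% of 8 reads (34.9% to 96.8%), and in that of animal 3 it was 28.6% of 14 reads (8.39% to 58.1%). The other 6 libraries held 0 to 4 reads of both genes. The mean of the libraries' percentages was 30.1% ± 27.2 (SD, n = 5) for *Fezf2+ve* cells against 26.4% ± 34.9 (SD, n = 4) for *Fezf2−ve* cells. The medians were 50% and 15.3%, and with 0 to 4 reads behind 6 of the libraries no difference between the types was detectable at this depth. Summed over libraries the percentage was 1.56% of 448 reads and 9.52% of 126 reads, values set largely by the libraries of animal 5.

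*Grin2c* and *Grin2d*, whose subunits are best known from the cerebellum and from interneurons and the brainstem, were at or under the 3-read limit in all 10 libraries. *Grin2c* (chromosome 11, 115249169 to 115267243, minus strand) had 2 reads in the *Fezf2+ve* library of animal 3 and 2 in the *Fezf2−ve* library of animal 4. *Grin2d* (chromosome 7, 45831883 to 45878378, minus strand) had 1 read and 2 reads in animals 1 and 4, both on the *Fezf2−ve* side. No fold change is given for either gene. *Kdelr1*, on the opposite strand and overlapping the 5′ side of *Grin2d*, had 273 reads in the *Fezf2+ve* library of animal 1, where *Grin2d* had 0.

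The GluN3 genes encode subunits that lower calcium permeability and bind glycine in place of glutamate. *Grin3a* (chromosome 4, 49661611 to 49845744, minus strand) had 1, 1, 3, 2 and 11 reads in *Fezf2+ve* and 10, 1, 7, 0 and 9 in *Fezf2−ve* libraries. In all, 4 libraries exceeded 3 reads, 1 of the *Fezf2+ve* and 3 of the *Fezf2−ve* type, and the types overlapped, although the lowest library was *Fezf2−ve* (animal 4) and the highest *Fezf2+ve* (animal 5) after scaling. The mean level was 4.25 ± 1.27 (SD, n = 5) for *Fezf2+ve* cells against 3.95 ± 2.42 (SD, n = 5) for *Fezf2−ve* cells, whereas the fit gave -0.12 as log2 fold change (standard error 1.24), so that the difference of mean levels and the fit differed in sign. The fold change turned to 0.48 without animal 1 and to 0.082 without animal 3. *Grin3b* (chromosome 10, 79970715 to 79977190, plus strand), a gene known mainly from motor neurons, had no read in any library, which allows up to 13.8 CPM in the deepest library and 33.7 CPM in the shallowest.

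*Grid1* (chromosome 14, 34820108 to 35583379, plus strand), encoding GluD1, was the most frequent member and was the single gene of the family with reads in all 10 libraries. Its reads in animals 1 to 5 were 9, 10, 13, 2 and 106 in *Fezf2+ve* and 923, 4, 368, 3 and 37 in *Fezf2−ve* libraries. The *Fezf2−ve* libraries of animals 1 and 3 stood above all *Fezf2+ve* libraries, those of animals 2 and 4 were among the lowest, and the types overlapped. The *Fezf2−ve* library of animal 1 alone held 62.6% of the *Grid1* reads, and in it *Grid1* made up 98.8% of the family's 934 reads. The mean level was 6.55 ± 1.73 (SD, n = 5) for *Fezf2+ve* cells against 8.09 ± 3.36 (SD, n = 5) for *Fezf2−ve* cells. In animals 2 and 5 *Grid1* was higher on the *Fezf2+ve* side and in animals 1 and 3 on the other, while animal 4, with 2 and 3 reads, turned with the scaling (levels 4.62 and 4.60 after TMM, 13.2 and 14.2 CPM before it), and the log2 fold change from the fit was -1.31 (standard error 1.20). Without the replicate block it was -2.89, and leaving out 1 animal at a time moved it from -2.59 without animal 5 to -0.18 without animal 1 and -0.24 without animal 3. Relative to depth, the *Fezf2−ve* libraries of animals 1 to 5 had 5985, 3680, 5032, 1680 and 3908 CPM of microglial genes. Their *Grid1* CPM were 5497, 44.9, 2181, 14.2 and 170. The *Fezf2+ve* library of animal 5 had 98.3 CPM of microglial genes and 521 of *Grid1*. The part of the microglial reads in the level of *Grid1* was not tested.

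**Figure D2:**
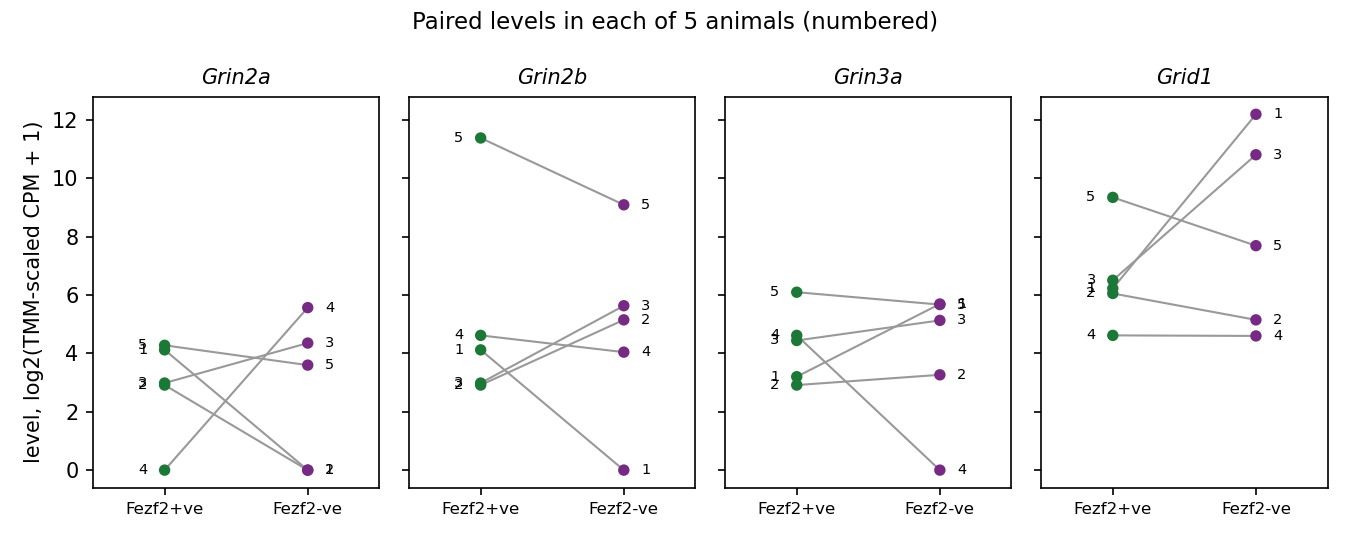
Level of the 4 longest receptor genes (y axis, log2 of TMM-scaled CPM + 1) in the *Fezf2+ve* (green) and *Fezf2−ve* (purple) library of each animal, with a grey line joining the libraries of an animal and its number beside the points. The lines run in both directions for each gene, and *Grin2b* is highest in animal 5 and *Grid1* in the *Fezf2−ve* libraries of animals 1 and 3.

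Of the 8 genes, 5 (*Grin1*, *Grin2a*, *Grin2b*, *Grin3a* and *Grid1*) reached 10 CPM in at least 2 libraries and were tested between the types with the animals paired. In edgeR's quasi-likelihood test with a block for the animal, adjusted by Benjamini-Hochberg over 7409 genes, 0 of the 5 had a false discovery rate (FDR) at or below 0.1, against 0% of all tested genes. The common biological coefficient of variation was 1.19, a spread at which this edgeR fit with the block can call few genes, so these counts of 0 do not show that the members did not differ. The adjusted p was 0.998 for each of the 5 (edgeR, Benjamini-Hochberg). At an unadjusted p under 0.05 the count was 0 of 5, against 3.89% of all tested genes, and the smallest unadjusted p was 0.447 for *Grid1* in the edgeR fit. None of the 5 moved in the same direction in all 5 animals, against 4.10% of all tested genes. Without the replicate block 0 of 5 passed the FDR threshold, against 3.77% of all tested genes. DESeq2 with the block gave an adjusted p to 2 of the 5, *Grin2b* (0.956) and *Grid1* (0.64), and called 0, against 5.89% of the 1664 genes with an adjusted p. The median log2 fold change of the 5 was 0.045, and that of all tested genes was -0.16.

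**Figure D3:**
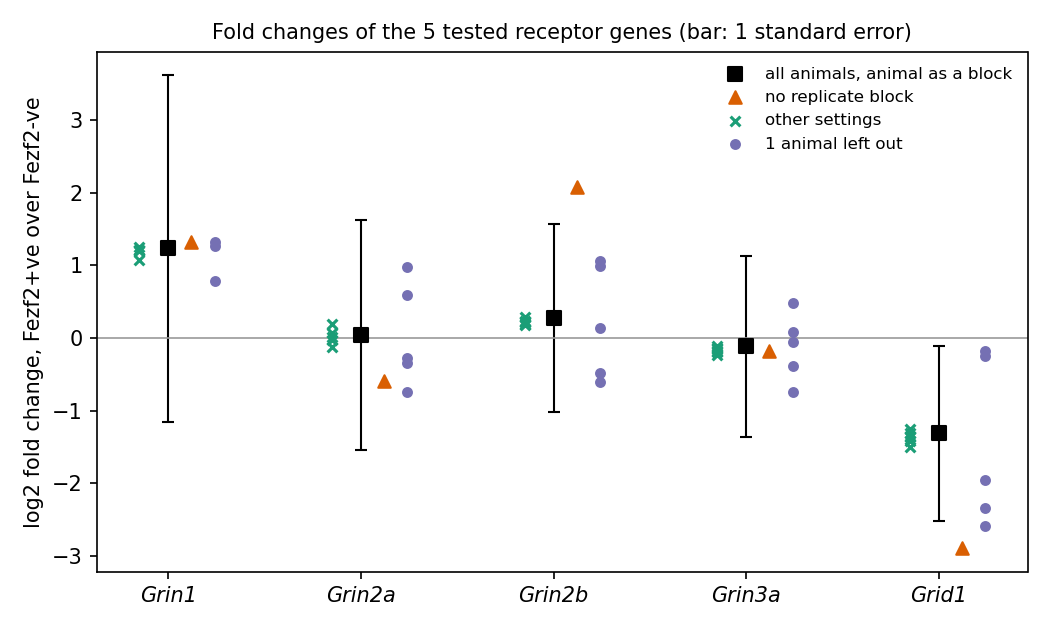
Log2 fold change of *Fezf2+ve* over *Fezf2−ve* (y axis) for the 5 tested receptor genes (x axis), with the value from all animals and the animal as a block in black (bar, 1 standard error), without the block in orange, with 1 animal left out in purple and under the other settings in green. *Grin2b* runs from -0.60 to 2.07 and *Grid1* from -2.89 to -0.18.

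Apart from summed reads and the *Grin2a* percentage, levels of different genes were compared per length. As CPM per 100 kb of gene span, the mean over the 10 libraries was 114 ± 230 (SD, n = 10) for *Grid1*, 59.8 ± 145 for *Grin2b*, 19.0 ± 24.1 for *Grin1*, 14.6 ± 32.3 for *Grin2c*, 14.3 ± 11.5 for *Grin3a*, 3.32 ± 7.21 for *Grin2d* and 2.59 ± 2.32 for *Grin2a*. No neighbours in this order differed by more than the larger of their SDs over libraries. By the median library the order was *Grid1* (13.3), *Grin3a* (10.5), *Grin1* (8.20), *Grin2b* (3.27) and *Grin2a* (2.16) in CPM per 100 kb of span, with *Grin2c* and *Grin2d* at 0. These orders pool both types, and within a type *Grid1* led only by the *Fezf2−ve* mean (207 ± 311, SD, n = 5), which the libraries of animals 1 and 3 carried. *Grin2b* led by the *Fezf2+ve* mean (95 ± 207, SD, n = 5), *Grin1* by the *Fezf2+ve* median (30.2) and *Grin3a* by the *Fezf2−ve* median (22.4, against 22.3 for *Grid1*). By its protocol the library is weighted to the 3′ end of transcripts, where reads need not rise with length, and the division by span placed *Grin1* and *Grin2c*, with 8 and 4 reads, above *Grin3a* and *Grin2a*, with 45 and 19.

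Most reads of the family lay in its longest gene, *Grid1*, and in *Grin2b*, although *Grin2a*, nearly as long as *Grin2b*, had 19. The 4 members spanning over 100 kb (*Grin2a*, *Grin2b*, *Grin3a* and *Grid1*) held 99.3% of the family's reads, and the 4 shorter ones together had 15 reads. Over protein-coding genes of the table the median was 0 reads for the 6705 genes under 10 kb, 2 for 10 to 30 kb, 8 for 30 to 100 kb, 22 for 100 to 300 kb and 85 for the 543 genes over 300 kb. *Grid1* and *Grin2b* lay above the upper quartile of the longest class (388 reads), *Grin3a* (45 reads) lay within its class, and *Grin2a* (19 reads) lay below the lower quartile of the longest class (34 reads). *Grin1*, with 8 reads, was above the median gene of its length. The part of gene span in the order of the members was not tested.

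**Figure D4:**
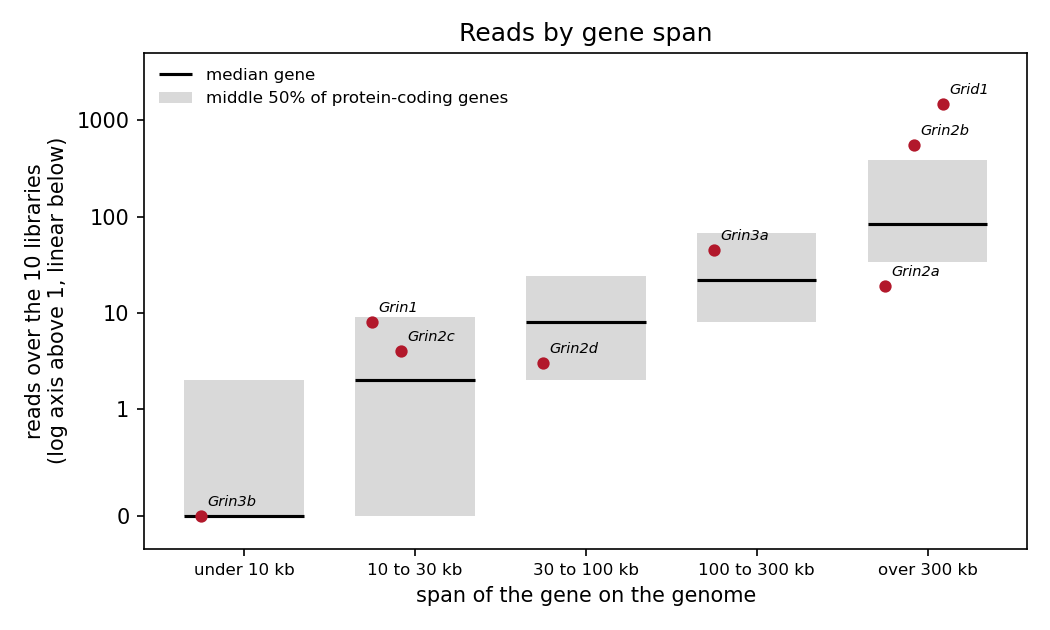
Reads over the 10 libraries (y axis, logarithmic above 1 and linear below) for protein-coding genes in 5 classes of genomic span (x axis), with the middle 50% of genes as grey bars, the median as a black line and the 8 receptor genes as red points. *Grid1* (1475 reads) and *Grin2b* (555) lie above the grey bar of genes over 300 kb and *Grin2a* (19) below it.

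The concentration of *Grin2b* and *Grid1* reads in 1 library was also seen in other genes. Among the 1445 genes with at least 100 reads, the median gene had 77.7% of its reads in its highest library, with quartiles of 52.0% and 94.0%. *Grin2b*, at 78.4%, was close to that median, and *Grid1*, at 62.6%, was below it. The genes whose pattern over the 10 libraries was most like that of *Grin2b*, among 2423 tested genes with reads in at least 8 libraries, were *Cox16* (Pearson r = 0.919) and the overlapping read-through gene *Synj2bp-cox16* (r = 0.883), which share sequence and so reads. Without the 2 libraries of animal 5, r over the other 8 libraries was 0.765 and 0.458. For *Grid1* they were *Ldlrad4* (r = 0.840) and the chaperone gene *Hspa8* (r = 0.822), and without the 2 *Fezf2−ve* libraries highest in *Grid1* r was 0.603 and 0.602. These correlations describe the 10 libraries, which differed in depth and in reads of cell type markers, and the part of either was not tested. The genes named are the 2 highest of 2423 for each member.

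**Figure D5:**
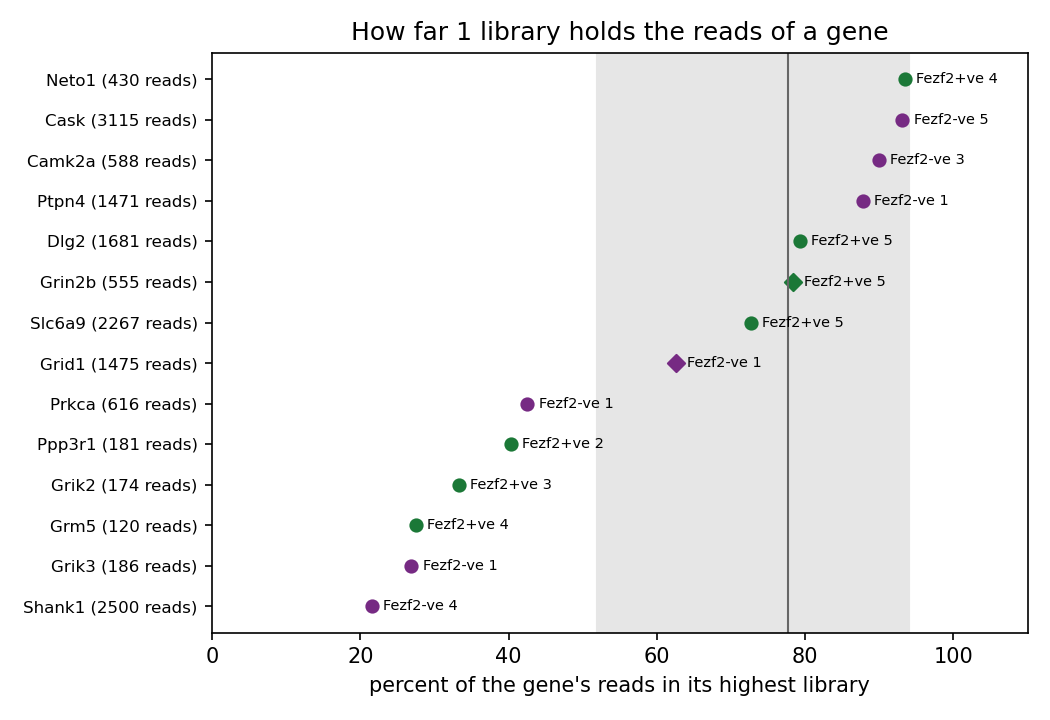
Percent of a gene's reads in its highest library (x axis) for *Grin2b* and *Grid1* (diamonds) and the named partner genes with at least 100 reads (circles), labelled with that library and colored by type (green *Fezf2+ve*, purple *Fezf2−ve*); the line is the median and the grey band the quartiles of 1445 genes. *Grin2b* (78.4%) lies near the median of 77.7%, *Cask* and *Neto1* lie above 90%, and *Shank1* lies at 21.6%.

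Genes that work with these receptors were read in the same fit. The 7 lists held 8, 16, 5, 7, 1, 7 and 5 tested genes, in the order given below. Over these lists 0 genes had an FDR at or below 0.1 (edgeR with the animal as a block) and 4 had an unadjusted p under 0.05, which 3.89% of all tested genes had. At that FDR, DESeq2 called *Shank1*, *Ppp3r1* and *Slc6a9*, against 5.89% of the 1664 genes to which it gave an adjusted p. Many genes of these lists had no adjusted p in DESeq2. EdgeR without the replicate block called *Ppp3r1*, *Slc6a9* and *Cask*, against 3.77% of all tested genes. Of 14 scaffold and anchor genes, which tether NMDA receptors at the postsynaptic density, 8 were tested and 0 had an unadjusted p under 0.05. *Shank1* lay just above that limit, with an unadjusted p of 0.0504 (edgeR with the block). The count was 1 without animal 4, with DESeq2 size factors in edgeR and with DESeq2. *Shank1* had 2500 reads spread over the libraries, 313, 210, 523, 325 and 357 in *Fezf2+ve* and 130, 15, 79, 539 and 9 in *Fezf2−ve*, and its log2 fold change, 2.80, had a standard error of 1.12. In 4 of 5 animals it was higher on the *Fezf2+ve* side, with an adjusted p of 0.998 in edgeR and 0.0981 in DESeq2, both with the block, and 0.645 in edgeR without it. *Dlg2*, encoding the membrane-associated scaffold PSD-93, had 1333 of its 1681 reads in the *Fezf2+ve* library of animal 5, the library that held most *Grin2b* reads and was the highest for 172 of the 1445 genes with at least 100 reads, and its log2 fold change was -0.67 with the block (standard error 1.20) and 1.87 without it (standard error 1.55).

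Of 24 kinases, phosphatases and calcium effectors 16 were tested, and 1 had an unadjusted p under 0.05. This was *Ppp3r1*, the regulatory subunit of calcineurin, with 56, 73, 6, 2 and 30 reads in *Fezf2+ve* and 6, 3, 2, 2 and 1 in *Fezf2−ve* libraries, higher in the *Fezf2+ve* library of all 5 animals after scaling (log2 fold change 3.21, standard error 1.08, adjusted p = 0.998, edgeR). *Camk2a*, encoding the kinase that docks on GluN2B, had 529 of its 588 reads in the *Fezf2−ve* library of animal 3, and *Prkca* had 25, 40, 3, 7 and 22 reads in *Fezf2+ve* and 262, 7, 62, 15 and 173 in *Fezf2−ve* libraries. Among 10 genes of co-agonist supply 5 were tested, and 1 had an unadjusted p under 0.05. This was *Slc6a9*, the glycine transporter GlyT1, with 8, 597, 4, 1 and 1648 reads in *Fezf2+ve* and 3, 2, 0, 3 and 1 in *Fezf2−ve* libraries (log2 fold change 4.99, standard error 1.59, adjusted p = 0.998, edgeR). Its *Fezf2+ve* libraries of animals 2 and 5 were far above the rest, those of animals 1 and 3 lay less far above the *Fezf2−ve* libraries, and that of animal 4 overlapped them. No gene of this list was under an unadjusted p of 0.05 without animal 1, 2, 3 or 5. *Phgdh*, the first enzyme of serine synthesis, had 78 of its 97 reads in the *Fezf2+ve* library of animal 5.

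Of 11 trafficking and surface partners 7 were tested, and 1 had an unadjusted p under 0.05. That gene was *Snx27*, a sorting nexin with 23 reads in *Fezf2+ve* and 1 in *Fezf2−ve* libraries (log2 fold change 4.16, standard error 2.45), named after its values were seen because the count was 1. Its reads were 0, 3, 12, 7 and 1 in *Fezf2+ve* and 0, 0, 1, 0 and 0 in *Fezf2−ve* libraries. Without animal 3 or 4 the count was 0. The stricter filter left 1 gene of this list tested and removed *Snx27*, so the count of 0 there says nothing about *Snx27*. In DESeq2 with the block *Snx27* had an unadjusted p of 0.0856, and the gene under 0.05 was *Cask* (0.0275). In edgeR without the block the unadjusted p of *Snx27* was 0.0118. *Cask* had 2901 of its 3115 reads in the *Fezf2−ve* library of animal 5 and was higher in the *Fezf2−ve* library of all 5 animals (log2 fold change -2.59 with the block, standard error 1.18, and -5.83 without it, standard error 1.32), and *Neto1* had 402 of its 430 reads in the *Fezf2+ve* library of animal 4. Among 6 ligands and partners of delta receptors, the cerebellin genes *Cbln1*, *Cbln2*, *Cbln3* and *Cbln4* had no read in any library and *Gopc* had 11. *Ptpn4*, a phosphatase that binds delta receptors, was the 1 gene of this list tested, and 1292 of its 1471 reads lay in the *Fezf2−ve* library of animal 1, which also held most *Grid1* reads and was the highest for 164 of the 1445 genes. Its reads were 23, 19, 6, 13 and 17 in *Fezf2+ve* and 1292, 16, 18, 48 and 19 in *Fezf2−ve* libraries (log2 fold change -1.31 with the block, standard error 1.06, and -3.56 without it, standard error 1.25, where it was under an unadjusted p of 0.05 in edgeR). After scaling *Ptpn4* was higher on the *Fezf2−ve* side of all 5 animals, by little in animals 2 (levels 6.97 and 7.12) and 5 (6.72 and 6.74).

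The other glutamate receptors gave no gene with an FDR at or below 0.1 either. Of 9 AMPA and kainate subunits 7 were tested and 1 had an unadjusted p under 0.05, the kainate subunit *Grik3*. No gene of this list was under 0.05 without animal 1, 3 or 4, without a filter or with edgeR's legacy method. Without the replicate block *Grik3* had a log2 fold change of -2.16 and an unadjusted p of 0.0509 (edgeR). The gene of the list under 0.05 in that fit was *Gria3* (unadjusted p = 0.0449, edgeR). In DESeq2 with the block the unadjusted p of *Grik3* was 0.0127. *Grik3* had 1, 15, 2, 1 and 11 reads in *Fezf2+ve* and 50, 24, 49, 15 and 18 in *Fezf2−ve* libraries, higher in the *Fezf2−ve* library of all 5 animals (log2 fold change -2.61, standard error 1.05, adjusted p = 0.998, edgeR). Each *Fezf2−ve* library of *Grik3* held at least as many reads as the highest *Fezf2+ve* library, 15. *Grik2* had 1, 54, 58, 6 and 6 reads in *Fezf2+ve* and 5, 15, 12, 4 and 13 in *Fezf2−ve* libraries, higher on the *Fezf2+ve* side in 3 of 5 animals. Of 8 metabotropic receptors 5 were tested and 0 had an unadjusted p under 0.05, with *Grm5* at 64 and 56 reads and *Grm7* at 40 and 54.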

How the data were processed

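The authors aligned reads to mm10 with TopHat2 2.1.1 and assigned them to gene intervals with bedtools 2.26.0 (multiCov), and the deposited values are raw counts per gene, with a separate table of spike-in counts; tools and versions are from the submitters' processing notes. A deposited table of the authors' DESeq2 comparison (means, fold changes and p-values) was not used. Counts were scaled by TMM and tested with edgeR 4.0.16 (quasi-likelihood, non-legacy method) in R 4.3.3 for genes reaching 10 CPM in 2 or more libraries, comparing the types with the animal as a block. The plan named the quasi-likelihood test but not its version: the first fit used the legacy default (0 genes at FDR at or below 0.1 with the block, 638 without), then 24 combinations of settings were run with these counts in view, and the newer method (0 and 279) was kept because an earlier analysis of the same data had used it. The choice was therefore made after counts of calls were seen. The labels state that the cells of each animal were separated into both types, and the replicate numbers name the animals; deviations of same-numbered libraries from their type means correlated at -0.027 to 0.097. Standard errors are Wald errors from the fitted information, a formula adopted after a first one, from the F statistic, proved unstable near 0. DESeq2 1.42.0 was an alternative, as were dropping the replicate block, another scaling or none beyond library size, a looser and a stricter filter, and leaving out each animal. The fit was tested on simulated data, where it recovered the changed genes at a low spread between animals but, with the block, few of them at a high spread, which the spread of these data (common biological coefficient of variation 1.19) exceeded, so a count of 0 in edgeR with the block does not show that genes did not differ; the changed genes were limited to those averaging at least 5 reads after a first run without that limit. P-values from fits with the block rest on how far the difference between an animal's libraries varied over the animals fitted. With 1 library of each type per animal, that spread also holds the noise of making a library. Without the block they rest on the spread between libraries of the same type. Gene positions are from GENCODE vM21 on GRCm38, the same build as mm10.

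The members and gene lists were chosen with earlier results of these data known. Named are the 8 members; from each partner list the 2 genes with the most reads and any with an unadjusted p under 0.05 and the same direction in all 5 animals; from most marker lists the gene with the most reads, and from each those at 0; and the 2 genes most like *Grin2b* and *Grid1* in pattern. *Fezf2*, *Slc17a7*, *Snx27*, *Gria3* and genes overlapping a member were added after their values were seen. Spike-in reads made up 2.79% to 46.7% of the reads of a library and entered no test.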

Additional observations from a re-analysis of the deposited data

Results flagged for a closer look

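In 7 of the 45 sets of 4 or 5 libraries of a type that were examined, 1 library lay apart from the others (its gap to the next exceeded 0.71 of the range, the limit for 5). The rate for which this limit is made, about 1 in 20 sets, cannot be set against this count. A set with reads in 1 library only, as for *Grin2c*, passes the limit whatever its level, and most partner genes were chosen for having the most reads. *Grin2b* had a level of 11.38 (log2(CPM + 1)) in the *Fezf2+ve* library of animal 5. *Grin2c* had 3.89 in the *Fezf2+ve* library of animal 3 and 4.04 in the *Fezf2−ve* library of animal 4, each from 2 reads with the other libraries at 0. Among the partner genes *Dlg2* had 13.00 in the *Fezf2+ve* library of animal 5, *Cask* 13.98 in the *Fezf2−ve* library of animal 5, and *Neto1* 12.21 and *Grm5* 8.60 in the *Fezf2+ve* library of animal 4. The cause was not tested.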

How the results depend on the processing

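No alternative brought a member past the FDR threshold or to an unadjusted p under 0.05. Of 56 alternative fold changes of the 5 tested members, 46 kept their direction and 10 reversed, and the cause of the reversals was not tested. *Grin2a* reversed to -0.59 without the replicate block, -0.031 with DESeq2 size factors and -0.12 without a filter. Leaving out each animal gave log2 fold changes from -0.74 to 0.98 for *Grin2a*, -0.60 to 1.07 for *Grin2b*, -0.75 to 0.48 for *Grin3a*, 0.78 to 1.32 for *Grin1* and -2.59 to -0.18 for *Grid1*. *Grin1* was not tested without animals 2 and 5 or under the stricter filter, nor *Grin2a* under the stricter filter, for want of reads. Adding 5 in place of 1 CPM turned the difference of mean levels to -0.11 for *Grin2a* and to -0.0015 for *Grin3a*. Per kb of exon in place of span, *Grin3a* was placed 3, *Grin2a* 4, *Grin1* 5, *Grin2c* 6 and *Grin2d* 7. Summed reads gave a *Grin2a* percentage of 1.56 in *Fezf2+ve* libraries in place of 30.1. For the partner lists, alternatives chosen after seeing the data called 1 gene each without the replicate block among kinases and effectors (*Ppp3r1*), co-agonist supply (*Slc6a9*) and trafficking partners (*Cask*), and 1 each with DESeq2 among scaffolds (*Shank1*), kinases and effectors (*Ppp3r1*) and co-agonist supply (*Slc6a9*). Over all genes the animal block called 0, no replicate block 279 (3.77% of 7409) and DESeq2 98 (5.89% of the 1664 with an adjusted p). At an unadjusted p under 0.05 the block gave 288 and no block 1345. How edgeR's quasi-likelihood test is set was itself chosen after seeing the data: over 24 combinations of settings, the first of them the legacy default, the 12 with the animal block called 0 genes (284 to 311 at an unadjusted p under 0.05) and the 12 without a replicate block called 0 to 646, so the count without the block depends on the setting. No member was called in any of the 24, by FDR or by unadjusted p. Depth limits most members, 61 of the 80 values being at or under 3 reads, and for *Grid1*, which exceeded 3 reads in 8 libraries, it limits animal 4 (2 and 3 reads).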
